A study of Mus musculus with 5 samples.

Results

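ZFP541 peaks were examined at the nuclear genes of the respiratory chain in mouse spermatocytes. The members are the RefSeq protein-coding genes whose symbols begin with Nduf and a, b, c, s or v, are Sdha to Sdhd, or begin with Uqcr, Cox4 to Cox8 or Atp5. This rule found 96 genes among 21779 protein-coding genes on chromosomes 1 to 19, X and Y, and it used no measured value. They comprise 40 complex I genes, 8 complex I assembly factors (Ndufaf), 4 genes of complex II, 8 of complex III, 19 of complex IV and 17 of complex V. By symbol, 86 of the 96 were classed as subunits, which takes in the short genes Ndufb4b and Ndufb4c (471 and 485 bp). Whether these 2 encode working subunits was not examined. The other 10 are the Ndufaf genes, Ndufa4l2 and Cox7a2l, a supercomplex assembly factor.

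The respiratory chain sits in the inner mitochondrial membrane. Complexes I and II pass electrons from NADH and succinate to ubiquinone, complex III passes them to cytochrome c, and complex IV passes them to oxygen. Protons pumped on the way drive complex V, the ATP synthase. Most subunits are encoded in the nucleus, the remainder by mitochondrial DNA. Pachytene spermatocytes use lactate and pyruvate from Sertoli cells and depend on respiration, and male germ cells express their own versions of some subunits, such as Cox6b2, Cox7b2 and Cox8c.

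ChIP-seq libraries came from spermatocytes in pachytene and diplotene, which STA-PUT, a sedimentation method, enriched from the testes of adult C57BL/6 mice. The wild-type ChIP group held 2 libraries and the knockout group, of genotype Zfp541-/-, held 1, all made with a rabbit antibody to ZFP541 residues 1 to 300 on chromatin fixed with 1% formaldehyde for 10 min. A further 2 wild-type input libraries were not analysed here. The labels do not say which part of Zfp541 is lost, how many animals were pooled or how pure the cells were. Peak lists measure binding and not expression, so the cell type could not be checked against its markers.

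The lists held 8236 and 10371 peaks in wild-type replicates 1 and 2 and 256 in the knockout. Their read depth is unknown, so a missing peak does not show that a gene was unbound. At Zfp541 itself the wild-type folds were 18.6 and 22.2 and the knockout list had no peak. Fold here means the enrichment at a peak over the caller's background, as the authors' lists give it, and a percentile is the rank of that fold within its own list. A region is a set of overlapping replicate 1 and replicate 2 peaks with no knockout peak. A gene is called occupied if a region overlaps its body or 1 kb around either end.

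ZFP541 occupied 17 of the 96 genes (17.7%, 95% exact binomial interval 10.7 to 26.8), while 23.9% of all protein-coding genes were occupied. The 17 were Ndufa10, Ndufa11, Ndufa13, Ndufb6, Ndufv2, Ndufaf4, Uqcrq, Cox4i1, Ndufa4, Atp5a1, Atp5c1, Atp5d, Atp5e, Atp5g2, Atp5g3, Atp5j and Atp5md. Complex V held 8 of them. Peaks of replicate 1 reached 19 members (19.8%, against 27.8% of all genes) and peaks of replicate 2 reached 27 (28.1%, against 32.6%). No member had a knockout peak (0%, interval 0 to 3.77, against 0.220% of all genes, which is 48 genes). With 1 knockout library, no comparison between genotypes was tested. A further 67 members had no peak in any list. The intervals cover counting error only.

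Promoter sequences are shown for the 4 occupied genes with the highest mean percentile of fold whose region overlaps the promoter, followed by 2 sperm-type genes of complex IV that had no peak. Each runs from 250 bases before the start site to 50 after it, 5′ to 3′ on the gene's own strand, from RefSeq on GRCm38.p6 (mm10). All 6 genes lie on the minus strand, and base 251 is the start site. Capitals mark matches to the motifs described with the promoter letters further on. The windows are chr15:102670998-102671297 for Atp5g2, chr1:92473709-92474008 for Ndufa10, chr16:84835576-84835875 for Atp5j, chr2:174464052-174464351 for Atp5e, chr7:4753045-4753344 for Cox6b2 and chr5:71548156-71548455 for Cox7b2.
Atp5g2: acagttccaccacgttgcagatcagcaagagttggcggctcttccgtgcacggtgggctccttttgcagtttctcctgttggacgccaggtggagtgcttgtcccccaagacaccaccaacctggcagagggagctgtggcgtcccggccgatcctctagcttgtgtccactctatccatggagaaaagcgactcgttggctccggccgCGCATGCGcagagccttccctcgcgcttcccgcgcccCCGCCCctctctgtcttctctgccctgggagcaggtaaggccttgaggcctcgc
Ndufa10: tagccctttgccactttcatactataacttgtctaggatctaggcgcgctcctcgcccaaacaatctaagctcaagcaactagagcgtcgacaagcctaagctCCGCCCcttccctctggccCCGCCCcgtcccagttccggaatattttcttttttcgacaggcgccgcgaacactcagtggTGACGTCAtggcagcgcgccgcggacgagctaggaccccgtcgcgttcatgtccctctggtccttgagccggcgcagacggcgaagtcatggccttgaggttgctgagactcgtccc
Atp5j: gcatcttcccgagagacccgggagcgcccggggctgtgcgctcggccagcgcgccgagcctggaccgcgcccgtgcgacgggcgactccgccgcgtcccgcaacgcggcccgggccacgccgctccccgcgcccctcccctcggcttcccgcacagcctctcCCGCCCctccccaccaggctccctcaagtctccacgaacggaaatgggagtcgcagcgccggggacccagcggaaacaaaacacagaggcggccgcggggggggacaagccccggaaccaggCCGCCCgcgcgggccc
Atp5e: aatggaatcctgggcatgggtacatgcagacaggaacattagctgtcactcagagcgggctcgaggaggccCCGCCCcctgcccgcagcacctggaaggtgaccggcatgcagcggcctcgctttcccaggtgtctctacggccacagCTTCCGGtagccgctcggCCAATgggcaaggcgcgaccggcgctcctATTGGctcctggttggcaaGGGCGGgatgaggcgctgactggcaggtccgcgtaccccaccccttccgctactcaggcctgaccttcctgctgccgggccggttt
Cox6b2: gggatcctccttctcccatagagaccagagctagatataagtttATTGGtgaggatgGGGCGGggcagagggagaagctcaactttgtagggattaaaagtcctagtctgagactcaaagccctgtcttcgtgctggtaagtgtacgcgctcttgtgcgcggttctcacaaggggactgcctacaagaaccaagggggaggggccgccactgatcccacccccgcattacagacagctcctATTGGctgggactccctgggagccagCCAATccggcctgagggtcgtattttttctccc
Cox7b2: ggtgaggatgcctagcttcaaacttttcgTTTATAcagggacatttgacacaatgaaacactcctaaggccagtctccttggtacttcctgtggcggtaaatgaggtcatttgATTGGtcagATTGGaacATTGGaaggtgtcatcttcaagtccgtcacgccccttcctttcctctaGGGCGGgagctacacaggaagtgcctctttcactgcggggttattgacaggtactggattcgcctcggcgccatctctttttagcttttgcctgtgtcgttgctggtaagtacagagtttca

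The occupied promoters shown had GC contents of 63.0% for Atp5g2, 59.0% for Ndufa10, 77.0% for Atp5j and 66.0% for Atp5e. The letters held 43 CpG dinucleotides in Atp5j, 27 in Ndufa10, 22 in Atp5e and 20 in Atp5g2. Cox6b2 and Cox7b2, which had no peak, held 10 each at GC contents of 55.7% and 48.7%. These 2 do not stand for the unoccupied members in general. Their ratios of observed to expected CpG were 0.432 and 0.564. The median over the 64 unoccupied members with a promoter entry was 0.828, at a median GC content of 57.0%.

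Complex I feeds electrons from NADH into the chain, and 5 of its 40 genes were occupied (12.5%, interval 4.19 to 26.8). They were 1 of the 7 core subunits, Ndufv2, and 4 of 32 genes classed by symbol as accessory subunits, Ndufb4b and Ndufb4c included. The remaining gene, Ndufa4l2, is grouped here by its symbol and is not a subunit, and it was not occupied. With replicate 2 peaks alone the count was 10 of 40, Ndufa4l2 included. Ndufa10 encodes an accessory subunit of the membrane arm and had the strongest region of this complex, with folds of 10.2 in replicate 1 (percentile 92.4) and 7.42 in replicate 2 (83.1). Its region (chr1:92473073-92473909) began in the gene and passed its 5′ end, no other coding gene's end lay within 1 kb of it, and both summits were inside Ndufa10, 61 and 95 bp downstream of the start site. Ndufa13, which also goes by GRIM-19, had folds of 6.48 and 7.05. Ndufb6, an accessory subunit of the membrane arm, had folds of 3.39 and 7.38, which lie at percentiles 24.5 and 82.5. Ndufa11 had folds of 3.93 and 3.69. The Ndufb6 folds were the furthest apart in rank of the 5, and those of Ndufa11 were close in rank at 41.3 and 43.6.

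Ndufv2 encodes an iron-sulphur subunit of the NADH-oxidising arm and had 2 regions, one at each end. The region at its start (chr17:66101067-66101665) had folds of 3.52 and 4.70, with summits 46 and 381 bp downstream of the start site. The region at its far end (chr17:66075993-66077940) was stronger, at 7.01 and 9.73, and its summits were 107 and 144 bp from a start site of Ankrd12, an ankyrin repeat gene on the same strand. Only the replicate 1 part of that region came within 1 kb of Ndufv2.

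Another 5 complex I genes had a replicate 2 peak only, and none had a replicate 1 peak only. Folds were 4.03 at Ndufa6, 4.03 at Ndufa4l2, 3.69 at Ndufb5, 3.02 at the core subunit gene Ndufs1 and 2.72 at Ndufa7. The −log10 q was 0.858 at Ndufs1 and 0.487 at Ndufa7, both short of a q-value of 0.05, while the other 3 passed it. No peak of any library was found at 30 genes, among them the core subunit genes Ndufs3 and Ndufv1.

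Assembly factors of complex I join its modules and are not part of the finished complex. Of the 8 Ndufaf genes, Ndufaf4 was occupied, with folds of 5.71 in each replicate and summits 283 and 163 bp downstream of its start site (chr4:24897927-24898474). Ndufaf3, Ndufaf7 and Ndufaf2 had a replicate 2 peak only, with folds of 3.36, 2.69 and 2.38. Of these 3, only Ndufaf3 reached a q-value of 0.05 (−log10 q of 1.48).

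Complexes II and III had 1 occupied gene between them. None of the 4 succinate dehydrogenase genes was occupied (interval 0 to 60.2%), and Sdhd, which encodes a membrane anchor, had a replicate 2 peak of fold 3.02 and −log10 q 0.858. Of 8 complex III genes, Uqcrq, which encodes a small subunit near the ubiquinone-binding part, was occupied at folds of 7.01 and 7.02 (percentiles 79.9 and 80.2). The replicates placed its summits 46 bp apart (chr11:53430334-53430956), inside Uqcrq, and the region also reached the end window of Gdf9, a growth factor gene known for its role in oocytes. The other 7 complex III genes, including the core protein genes Uqcrc1 and Uqcrc2 and the Rieske protein gene Uqcrfs1, had no peak in any library.

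Complex IV reduces oxygen, and 2 of its 19 genes were occupied (10.5%, interval 1.3 to 33.1). Cox4i1, the general form of subunit 4, had folds of 7.14 and 6.71 (percentiles 81.0 and 78.9), with summits inside the gene 177 and 245 bp from its lower-coordinate end (chr8:120667089-120668833). Ndufa4, first assigned to complex I and now to complex IV, had folds of 3.93 and 2.29. The replicate 2 value was at percentile 1.15 of its list, with a −log10 q of 0.495. Single-replicate peaks were found at Cox7a2 (fold 4.64, replicate 1), Cox5b (3.02, replicate 2) and Cox6a1 (2.38, replicate 1).

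The 7 tissue forms of Cox subunits named here had no peak in any library. Cox6b2, Cox7b2 and Cox8c are the forms known from testis, and the nearest ZFP541 regions lay 11474, 109520 and 20556 bp from these genes. Cox6a2, Cox7a1 and Cox8b, the forms of heart and skeletal muscle, had their nearest regions at 31507, 61999 and 292588 bp, and Cox4i2, known from lung, at 65997 bp. Among the 8 tissue forms named for this account, Ndufa4l2 alone had a peak, the replicate 2 peak given above.

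Complex V, which makes ATP, had 8 of 17 genes occupied (47.1%, interval 23.0 to 72.2). The share was 23.9% over all protein-coding genes and 42.6% over those with a CpG-rich promoter. No other member class exceeded 12.5%, and the difference between classes was not tested, since the classes were compared after the values were known. Of the 5 genes of the catalytic head and central stalk, 4 were occupied: Atp5a1 (subunit alpha), Atp5c1 (gamma), Atp5d (delta) and Atp5e (epsilon). The region at each of these 4 also reached the end window of another coding gene: Haus1, Kin, Cbarp and Prelid3b, in the same order. Atp5b, which encodes the catalytic beta subunit, had no peak. This count of 4 fell to 2 with a −log10 q minimum of 5, where 13.7% of all genes were occupied. It fell to 0 with a minimum of 10 (7.88% of all genes). It was also 0 when the replicates' peaks had to overlap reciprocally by at least 50% (17.5% of all genes). Of the 3 genes that encode the c-ring subunit, Atp5g2 and Atp5g3 were occupied and Atp5g1 had no peak. Of 4 peripheral stalk genes only Atp5j (coupling factor 6) was occupied, and of 5 other membrane subunit genes only Atp5md. All 8 had a peak in each replicate, and the other 9 had a peak in neither.

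Atp5g2 had the highest folds of any member, 17.9 in replicate 1 and 13.0 in replicate 2, at percentiles 99.6 and 96.4. Its summits lay 25 bp apart, 86 and 111 bp downstream of the start site (chr15:102670520-102672367), and the end of no other coding gene was within 1 kb of the region. Atp5j had folds of 7.50 and 8.73, and Atp5d had 6.78 and 6.32. Atp5e had 5.69 (percentile 68.7) in replicate 1 and 12.4 (95.9) in replicate 2. Lower folds were found at Atp5md (4.90 and 3.32), Atp5g3 (4.11 and 4.83), Atp5c1 (4.06 and 2.91) and Atp5a1 (4.01 and 3.36). The replicate 2 peak at Atp5c1 had a −log10 q of 1.01 and so missed a q-value of 0.05.

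**Figure D1:**
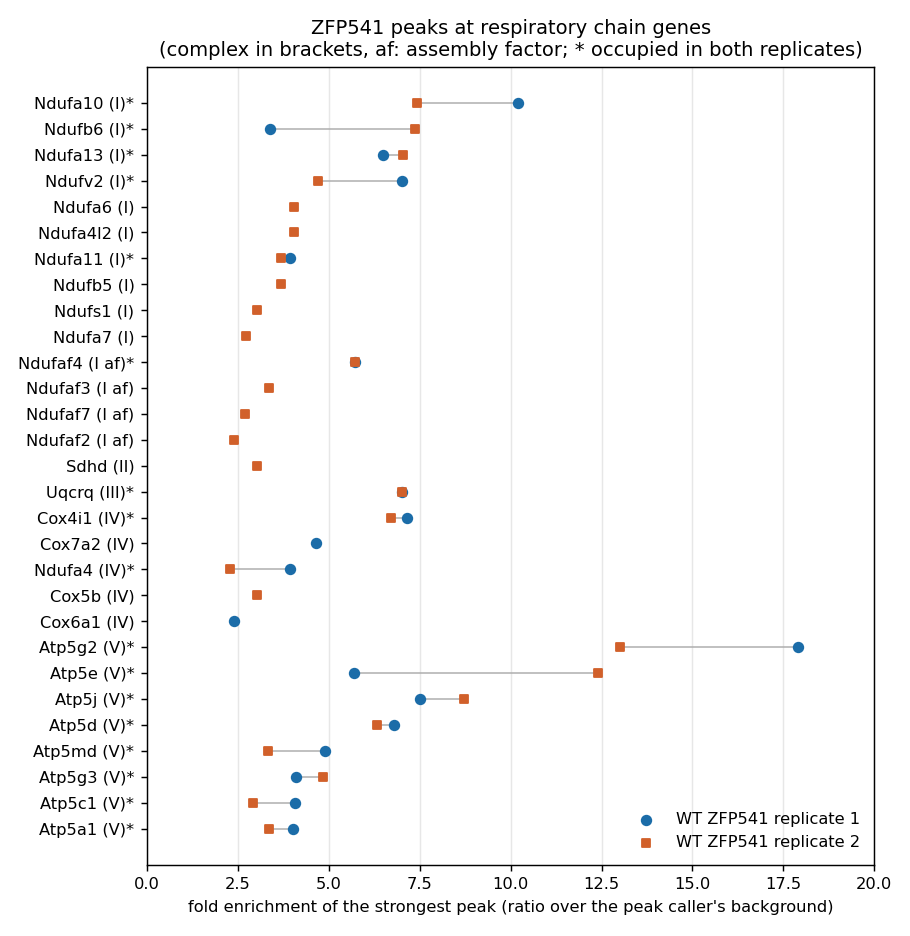
Fold enrichment of the strongest peak (horizontal axis, a ratio over the peak caller's background) at each of the 29 members with a wild-type peak, in replicate 1 (circles) and replicate 2 (squares), grouped by complex, with occupied genes starred. Atp5g2 lies furthest right at 17.9 and 13.0, and the single-replicate members lie between 2.38 and 4.64. The 2 points of Ndufv2 come from different regions. That of replicate 1 (7.01) is near Ankrd12 and that of replicate 2 (4.70) at its own start.

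**Figure D2:**
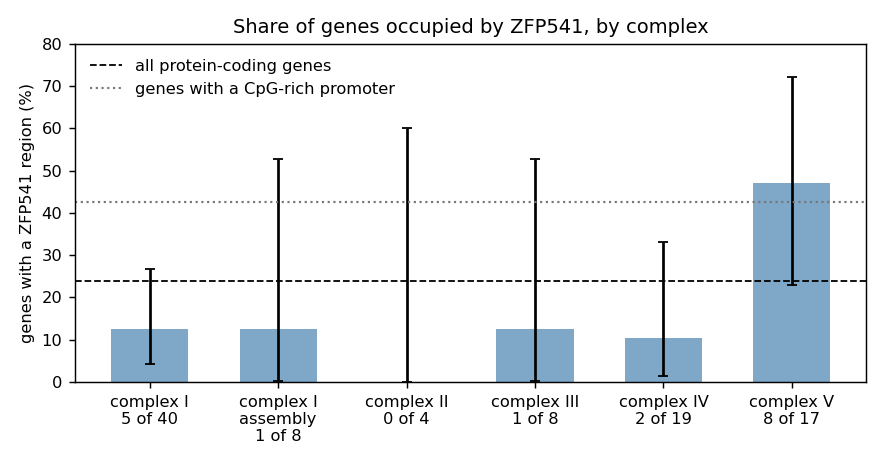
Share of genes occupied by ZFP541 in each complex (bars, in percent) with 95% exact binomial intervals, which cover counting error only, beside the share of all protein-coding genes (dashed, 23.9%) and of genes with a CpG-rich promoter (dotted, 42.6%). Complex V stands at 47.1%, and the other classes lie between 0% and 12.5% with wide intervals.

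Median folds at the occupied members were like those at occupied genes in general. The median was 5.71 in replicate 1 (lowest 3.39, highest 17.9) and 6.32 in replicate 2 (lowest 2.29, highest 13.0), against 5.71 and 6.38 over all occupied genes. In ranks, the members' medians were at percentiles 69.8 and 75.7, beside 69.8 and 76.8. The members' peaks were narrower, with median widths of 548 and 623 bp, against 736 and 997 bp over all occupied genes. In replicate 1, 0 of the 17 missed a q-value of 0.05 (against 6.44% over all occupied genes). In replicate 2, 2 of the 17 missed it (11.8%, against 3.76%). The 10 members with a replicate 2 peak only had a median fold of 3.02, and 6 of these 10 peaks missed a q-value of 0.05. Both replicates had peaks at 17 members, and those were the 17 occupied genes. The strongest peak of each replicate was used here and in the summit counts below, and for Ndufv2 these lay in different regions.

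Regions at these genes mostly overlapped a promoter of the member, and many were shared with a neighbour. Start sites were taken from the promoter table, which holds 78 of the 96 members and 14 of the 17 occupied ones. Of the 14, a region overlapped the 300-base promoter by at least 1 bp in 12 (85.7%), against 84.7% of all occupied genes. Over all members with an entry the share overlapped was 15.4%, against 20.4% of all genes. The strongest summit was within 250 bp of a start site in 7 of 14 members in replicate 1 and 8 of 14 in replicate 2, while the shares over all occupied genes were 54.0% and 53.5%. Within 1 kb it was 10 of 14 (71.4%) and 11 of 14 (78.6%), against 85.5% and 85.1% of all occupied genes. Regions at gene ends were found at 16 members (16.7%, against 21.0% of all genes). The exception was Atp5g3, whose region lay more than 1 kb from both ends of its annotated span but 155 and 71 bp downstream of a start site.

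**Figure D3:**
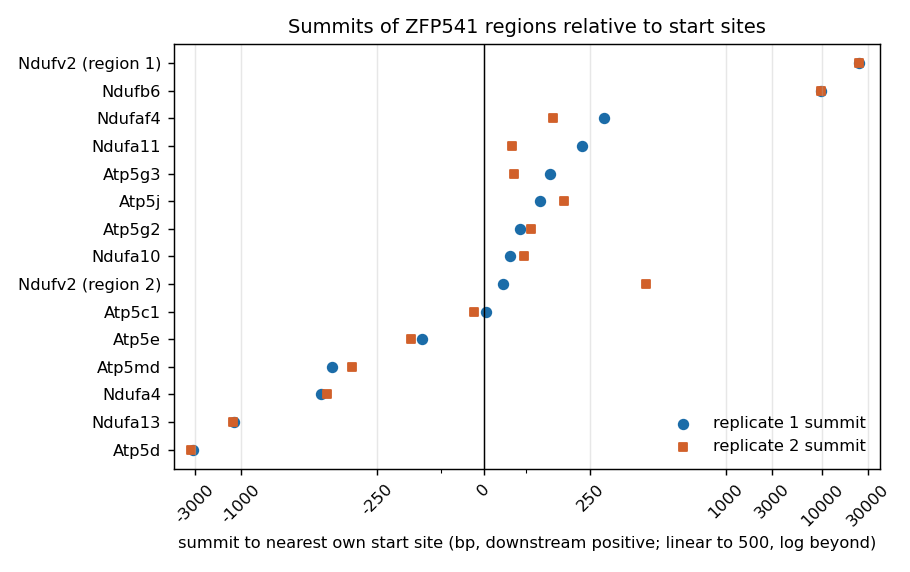
Distance in bp from the summit of each region to the nearest start site of the same member, in replicate 1 (circles) and replicate 2 (squares), for the 15 regions of the 14 occupied members with a start site. The axis is linear to 500 bp and logarithmic beyond, with downstream positive. Most summits lie within 500 bp of the start, and those of Ndufb6, Atp5d, Ndufa13 and the stronger Ndufv2 region lie further away.

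Respiratory chain genes often have close neighbours. The 1 kb window around an end overlapped that of another coding gene at 59 of the 96 members (61.5%, against 32.2% of all genes) and at 13 of the 17 occupied ones (76.5%, against 42.5% of all occupied genes). Of the 59, 13 were occupied (22.0%, against 31.6% of all genes with a shared end window). Without a shared end window, 4 of 37 members were occupied (10.8%, against 20.3%): Ndufa10, Atp5g3, Ndufaf4 and Atp5g2.

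At 13 members a region also reached the end window of another coding gene, so ChIP-seq alone cannot assign it. Start sites of both genes were known for 10 of the 13. At 4 of these the summits of both replicates were nearer the member's own listed start: Atp5c1, Atp5e, Atp5j and Ndufa11. Some genes have more than 1 listed start, and distances between genes are given for their closest pair of starts. That pair was 148 bp apart for Atp5j and Gabpa, which lie on opposite strands and share 1 region (chr16:84834651-84836450). The Atp5j start nearest the summits was a different one, at 132 and 189 bp from them. The nearest Gabpa start was 369 and 312 bp from the summits. Gabpa encodes the DNA-binding part of an ETS factor known to act on nuclear genes of respiration. The closest starts of Atp5c1 and Kin were 102 bp apart, and those of Ndufa11 and Vmac 63 bp apart, also on opposite strands. For Atp5c1 and Kin this pair left out the Atp5c1 start nearest the summits, which lay at 6 and -23 bp from it. The nearest Kin start was 186 and 157 bp from the summits.

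At the other 6 of the 10, at least 1 region had summits nearer the listed start of the neighbour. The Ndufa4 summits were 2 and 13 bp from a start of Phf14, and at -381 and -366 bp from Ndufa4's own start, upstream of it. The Ndufb6 summit, at the same base in both replicates, was 40 bp from a start of Smim27, 222 bp from one of Topors, a ubiquitin and SUMO ligase gene, and 9802 bp from that of Ndufb6. The Atp5md summits were 235 and 189 bp from a start of Pdcd11, and at -354 and -308 bp from Atp5md's own start. The closest starts of Atp5md and Pdcd11 were only 119 bp apart, on opposite strands. The Atp5d summits were 271 and 368 bp from a start of Cbarp and inside both genes, at -3179 and -3276 bp from the start listed for Atp5d. That listed start lies inside the annotated span of Atp5d, and the summits were 398 and 301 bp from the nearer end of the span, so a region at another start of Atp5d cannot be told apart from one at Cbarp. The Ndufa13 summits fell inside Tssk6, a testis kinase gene, 1011 and 1049 bp from its start. They were at -1175 and -1213 bp from the start listed for Ndufa13, and 637 and 675 bp from the nearer end of its span. That listed start also lies inside the annotated span, so a region at another start of Ndufa13 cannot be told apart from one at Tssk6. Ndufv2 is the sixth, through its far region at Ankrd12, although its second region lies at its own start. For Cox4i1 with Emc8 and Gm27021, Uqcrq with Gdf9, and Atp5a1 with Haus1 (chr18:77773912-77774384), start sites of both genes were not at hand.

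Occupied members had CpG-rich promoters, defined here as a GC content of at least 50% with CpG at 0.6 or more of the number expected from the base composition. All 14 occupied members with a promoter entry met this, and so did 45 of the 64 unoccupied ones (70.3%). A region overlapped a listed promoter at 12 of the 14, and none did so at Ndufb6 and Atp5d. Among all occupied genes 80.8% met it, and among all genes 45.8%. The median GC content was 61.8% for occupied members, 57.0% for unoccupied members and 65.7% for all occupied genes. The median CpG ratio was 0.868, 0.828 and 0.848 in the same order.

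Read within CpG-rich promoters, the members' share was lower than that of other genes. Of the 59 members with such a promoter 14 were occupied (23.7%, interval 13.6 to 36.6), against 42.6% of all genes with one. Of the 19 members with other promoters none was occupied (interval 0 to 17.6%), against 8.52%. Within CpG-rich promoters complex V had 7 of 13 occupied (53.8%), complex I 5 of 26 (19.2%) and complex IV 1 of 8 (12.5%). Gene length gave the opposite order. Members are short, with a median of 7228 bp against 17217 bp for all genes, and in the middle of their length range (3781 to 12561 bp) 12 of 48 members were occupied (25.0%, interval 13.6 to 39.6), against 18.5% of all genes of that length. These shares were not tested against each other.

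**Figure D4:**
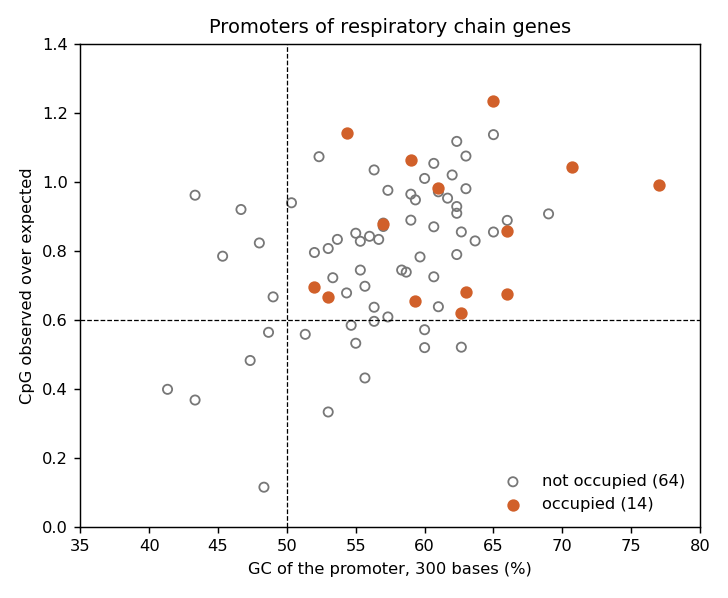
GC content (horizontal, in percent) and ratio of observed to expected CpG (vertical) of the 300-base promoters of the 78 members with an entry. The 14 occupied members (filled) all lie in the upper right field bounded by the dashed lines at 50% and 0.6, together with 45 of 64 unoccupied members (open).

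Promoter letters were searched on both strands for motifs of factors known for respiratory genes or germ cells. Occupied members are counted by gene here, so they include Ndufb6 and Atp5d, whose promoters no region overlapped. None of the motifs contains another, though matches may share bases. Member promoters are more often CpG-rich than all promoters (75.6% against 45.8%), and the motif shares were not adjusted for this. The core of nuclear respiratory factor 1 (CGCATGCG), which holds CpG itself, was found in 10 of 78 member promoters (12.8%). The share was 2.55% over all 17492 promoters and 4.08% over those of all occupied genes. This core was in 3 of 14 occupied members (Atp5g2, Ndufaf4 and Ndufa11) and in 7 of 64 unoccupied ones. In the Atp5g2 promoter printed above it begins at base 210. The ETS core bound by GABPA (CCGGAAG) was found in 23.1% of members and 11.9% of all promoters, and in 3 of 14 occupied members (Atp5e, Ndufb6 and Atp5md) and 15 of 64 unoccupied ones. Occupied and unoccupied members therefore held this core at 21.4% and 23.4%. The YY1 core (AAGATGG) was in 11 unoccupied members and in no occupied one, with 6.35% of all promoters holding it. The ZFP143 core (ACTACAA) was in 2 of 14 and 6 of 64, against 3.82% of all promoters.

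The SP and KLF box (GGGCGG) was in 9 of 14 occupied members (64.3%), 26 of 64 unoccupied ones (40.6%) and 72.0% of all occupied genes, against 46.3% of all promoters. Atp5j, Ndufa10 and Atp5e each hold it more than once in the sequences above. The NF-Y box (CCAAT) was in 5 of 14 and 29 of 64, against 39.2% of all promoters, and it appears 3 times each in the Cox6b2 and Cox7b2 promoters. The cyclic AMP response element (TGACGTCA) was in 2 of 14 occupied members, Ndufa10 and Ndufa11, and 2 of 64 unoccupied ones, against 2.33% of all promoters. The E-box (CACGTG) was in 1 of 14 and 5 of 64, the RFX core (GTTGCC) in 0 of 14 and 9 of 64, and the TATA box (TATAAA) in 1 of 14 and 7 of 64. All promoters held them at 7.91%, 12.8% and 13.3%. These matches describe letters and are not evidence of binding.

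Other genes of the pathway were read with the same call, beside the 23.9% of all genes. Of 34 assembly factors of complexes II to V, 12 were occupied (35.3%, interval 19.7 to 53.5). Atpaf2, which helps to assemble the ATP synthase head, had folds of 9.29 and 8.50. Sdhaf2, which helps to insert flavin into succinate dehydrogenase, had 8.17 and 5.01. Ttc19 and Bcs1l, both of complex III, had 7.0 and 7.72, and 5.71 and 4.70. The complex IV factors among the 12 were Pet117, Sco2, Cox11, Cox14, Cox15 and Cox20, and the others were Sdhaf1 and Atpaf1. Of 10 further complex I assembly factors, Ecsit was occupied (4.97 and 6.38).

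Cytochrome c and its partners had 2 of 4 genes occupied. Cycs, the somatic cytochrome c gene, had folds of 8.94 and 4.25, and Cyc1, which encodes cytochrome c1 of complex III and is not taken in by the symbol rule, had 7.04 and 11.7. Cyct, the testis form of cytochrome c, and Hccs were not occupied.

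Regulators of mitochondrial transcription and biogenesis had 11 of 24 genes occupied (45.8%, interval 25.6 to 67.2). Of the 11, Gabpa, Tfb1m, Tfb2m, Polrmt, Mterf3 and Twnk share an end window with another coding gene. Over all genes, 31.6% of those with a shared end window and 42.6% of those with a CpG-rich promoter were occupied. Tfb1m, which encodes a methyltransferase of mitochondrial ribosomal RNA, had the highest folds, 11.8 and 12.8, followed by Polrmt, the mitochondrial RNA polymerase gene, with 9.29 and 7.38. Gabpa had the values of the region it shares with Atp5j. The coactivator gene Ppargc1a had 4.64 and 6.38, and Nrf1, the gene of nuclear respiratory factor 1, had 5.24 and 4.96. Yy1 had 5.34 and 8.30, Tfb2m 4.88 and 7.05, Mterf3 5.36 and 5.30, Polg 3.57 and 4.23, and Twnk 3.29 and 4.36. Tfam, which packages mitochondrial DNA, had the lowest folds of the 11, 2.62 and 2.34, at percentiles 3.48 and 1.49 of their lists. None of these lists had a knockout peak.

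Lists of neighbouring metabolism lay nearer the share of all genes. Mitochondrial ribosomal protein genes had 19 of 78 occupied (24.4%, interval 15.3 to 35.4), the TCA cycle 5 of 19 (26.3%, interval 9.15 to 51.2) and glycolysis 6 of 29 (20.7%, interval 7.99 to 39.7). The highest folds in each were at Mrps6 (14.6 and 13.8), at the fumarase gene Fh1 (13.6 and 13.8) and at the enolase gene Eno3 (8.59 and 11.1). Among sperm glycolytic genes, Gapdhs was occupied at 2.90 and 3.69 (percentiles 10.3 and 43.6), while Pgk2 had no peak. Ldhc had a peak in each replicate (4.29 and 3.36), but these did not overlap and so made no region. Marker genes of pachytene spermatocytes had 3 of 6 occupied and those of spermatogonia and somatic testis cells 2 of 9. The 13 protein-coding genes of mitochondrial DNA could not be read, because no list holds a peak on that chromosome.

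Members stayed below all genes in each of the 13 settings in which both shares were computed. The members' share ran from 5.21% (against 7.88%) at a −log10 q of at least 10 to 28.1% (against 32.6%) with replicate 2 alone. Ndufa10, Uqcrq, Atp5g2 and Atp5j were occupied in all 13. So was Ndufv2, but at a −log10 q of at least 5 or 10 only through the region near Ankrd12, since the replicate 2 peak at its own start had a −log10 q of 4.41. The complex V count was less stable, falling to 4 of 17 (23.5%) when the replicates' peaks had to overlap reciprocally by at least 50% (17.5% of all genes) or at a −log10 q of at least 5 (13.7%). At a −log10 q of at least 10 it was 2 of 17 (11.8%, against 7.88%).

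**Figure D5:**
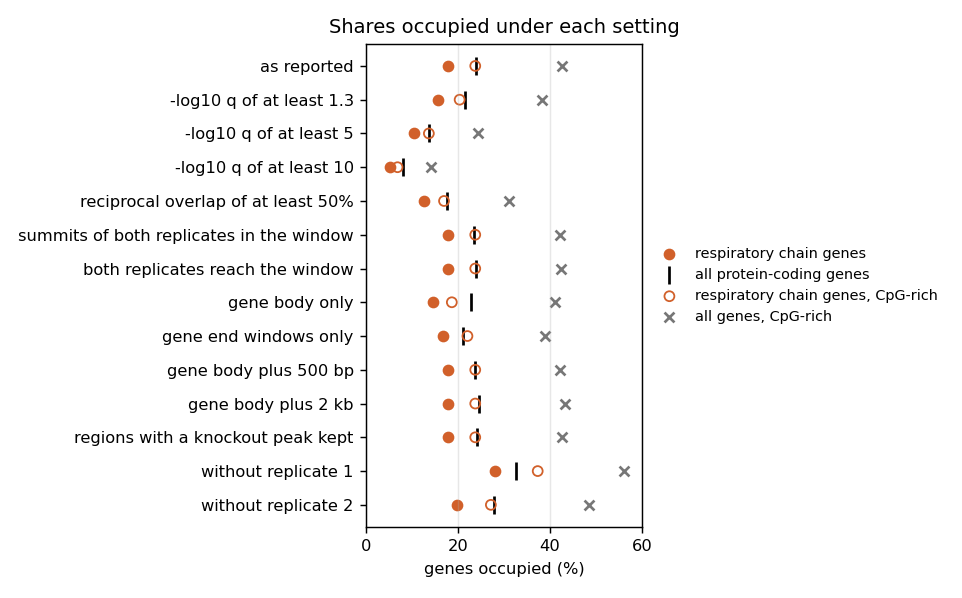
Percent of genes occupied (horizontal) under the reported setting and 13 alternatives (vertical axis), for respiratory chain genes (filled circles), all protein-coding genes (bars), and the genes of each with a CpG-rich promoter (open circles and crosses). In each setting the filled circle lies left of the bar, and the open circle lies left of the cross.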

How the data were processed

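Peak lists of 2 wild-type and 1 knockout ZFP541 ChIP library were used. The submitters' processing notes name mm10 and the tools MACS2 2.2.6, Bowtie2 2.3.5, deepTools 3.5.0, cutadapt 2.6, SAMtools 1.10 and Picard. Settings, peak threshold and control were not given in the sources used here. No list pools replicates, since every library has its own. Every peak has, in the deposited files, a fold enrichment (the authors' ratio to the peak caller's background), a −log10 p, a −log10 q, a summit and the authors' score, which is 10 times the −log10 q without decimals. The fold was used to describe and rank peaks within a list.

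Genes and promoters came from RefSeq tables of GRCm38.p6. The 108 coding entries before 3 Mb on autosomes and X, which carry scaffold coordinates, were left out. Overlap was at least 1 bp. Replicate peaks that overlapped were joined into 5457 regions, and 132 with a knockout peak were removed, which left 5325. No test between groups or of a list was run. Shares have 95% exact (Clopper-Pearson) intervals. Read depth is unknown. Labels do not say whether replicates came from separate animals.

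The members and lists were chosen with earlier results of these data known. Named were all occupied members, members with a peak in 1 library, 8 tissue forms, and occupied regulators and cytochrome c genes. Examples from other lists, the breakdowns by sector and by CpG content, and the neighbouring genes were chosen after their values were seen. Alternatives were stricter q-values, overlap rules, windows, single replicates, knockout peaks kept, subunits only, unshared ends and scaffold entries kept. Overlap steps were tested on simulated data, in which 200 of 200 genes were found. Versions were scipy 1.17.1, matplotlib 3.10.9, numpy 2.4.6, pandas 2.3.3 and Python 3.11.15.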

Additional observations from a re-analysis of the deposited data

How the results depend on the processing

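At a −log10 q of at least 5, 10 members were occupied (13.7% of all genes), with 3 in complex I, 4 in complex V and 8 with a CpG-rich promoter (24.3% of all such genes). At a −log10 q of at least 10 these were 5 members (7.88%), 2, 2 and 4 (14.1%). A reciprocal overlap of at least 50% left 12 members, 4 of them in complex V (17.5% of all genes and 31.0% of CpG-rich genes). Leaving out a wild-type replicate gave 19 members without replicate 2 and 27 without replicate 1, against 27.8% and 32.6% of all genes and 48.4% and 56.0% of CpG-rich genes. Complex I counts were then 5 and 10, complex V counts 8 and 8, and members with a CpG-rich promoter 16 and 22. Without members that share an end window, 37 members remained and 4 were occupied (10.8%, against 20.3% of all genes without a shared end window). The counts by complex and by CpG content were added after seeing the data, and the causes were not tested. Counts under the other alternatives stayed within 1.5 times, and no alternative window gave a member a knockout peak. No paired analysis was possible because no test across samples was run and the knockout has 1 library. Unknown depth limits every missing peak.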
